A study of Rattus norvegicus with 9 samples.

Results

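The erythroid genes and hemoglobin were described here with 9 genes of 32043 in the expression table of rat knee cartilage: Hba-a1, Alas2, Slc4a1, Ahsp, Hemgn, Klf1, Gata1, Epor, and Tfrc. They were found by gene name, and they had been chosen from their measured levels in these same libraries, so their levels and fold changes are given as a description, with no test. Hba-a1, Alas2, and Slc4a1 stood for late erythroid genes and Gata1, Klf1, and Tfrc for progenitor genes. All 9 had a mean of at least 0.5 FPKM (fragments scaled by gene length and library size), the minimum used for the tests, which 13898 genes met. Tests were run on a further 81 genes of the same pathways that are no members.

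Male Sprague-Dawley rats, 8 weeks old when bought, gave the tissue. In the control group the joint capsule of the knee was opened and sutured. The model group had knee osteoarthritis (KOA) induced by the modified Hulth method, in which ligaments are cut out and the medial meniscus is removed, followed by forced activity each day. The SYD group had the same operation and received an extract of Shengyu decoction (SYD, a mixture of botanical drugs) by gavage for 4 weeks, and tissue was taken 8 weeks after surgery. Each group had 3 libraries, and the libraries of the model and SYD groups are called operated libraries below. The labels name SYD without a dose. Their library names for this group begin with CXTB instead, and the study also had a group that it calls CXB. The study used 3 doses and names its high-dose group (SYD-H) for the sequencing. Nothing says that the 3 libraries of a group came from separate animals, so the p-values measure the spread between these libraries, which may be technical.

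Red cells form in the bone marrow. The transcription factors Gata1 and Klf1 act from the progenitor stage on, erythropoietin signals through its receptor Epor, and the transferrin receptor Tfrc brings in iron. As the cells mature they fill with hemoglobin, made of globin chains and of heme whose synthesis starts with the enzyme Alas2, and they build a membrane in which the anion exchanger Slc4a1 (band 3) anchors the skeleton. Reticulocytes, which have lost the nucleus, still hold globin mRNA and pass into the blood.

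The libraries held 14914121 to 19510537 reads. Mitochondrial genes took 4.05% to 4.86% of the reads in control, 90.7%, 39.5%, and 81.3% in model libraries 1, 2, and 3, and 23.7%, 34.7%, and 72.7% in SYD. Model library 1 was left with 1744769 reads outside these genes and model library 3 with 3611325, against 14306782 to 17373645 in the controls. The labels give cartilage as the tissue, while their extraction text speaks of retina. All 8 photoreceptor genes were below the minimum for testing, with a summed level of at most 3.50 FPKM. Col2a1, the main collagen of cartilage, was measured at 8323, 348, and 4468 FPKM in the control libraries and at 39.0 to 609 FPKM in the operated ones. Control library 2, with the least Col2a1 of the controls, had the most of every one of the 9 genes among them.

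The sequences before the gene starts are shown because these 9 genes form 1 set and because the alpha-globin genes are near-copies. RefSeq windows of 250 bases before the start (build GRCr8) were at hand for 7 of the 9 members, the exceptions being Slc4a1 and Ahsp. Capitals mark GATA sites spelled AGATAA or with the variants AGATAG and then TGATAA and also TGATAG, and the KLF1 core spelled CCACACCC or with the variants CCCCACCC and also CCGCACCC, read on both strands, and the 2 kinds do not overlap here. Hba-a1 lies at chr10:15842581-15842830, minus strand, and Hba-a2 at chr10:15829139-15829388, minus strand. Alas2 lies at chrX:22895200-22895449, plus strand, Hemgn at chr5:65485822-65486071, minus strand for the start shown, Klf1 at chr19:40158652-40158901, minus strand, Epor at chr8:28770323-28770572, minus strand, and Tfrc at chr11:81690319-81690568, minus strand.
Hba-a1: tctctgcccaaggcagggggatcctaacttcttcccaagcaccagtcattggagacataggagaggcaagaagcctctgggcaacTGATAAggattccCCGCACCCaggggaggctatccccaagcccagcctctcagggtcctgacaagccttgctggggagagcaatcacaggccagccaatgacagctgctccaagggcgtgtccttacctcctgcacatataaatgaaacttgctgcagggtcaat
Hba-a2: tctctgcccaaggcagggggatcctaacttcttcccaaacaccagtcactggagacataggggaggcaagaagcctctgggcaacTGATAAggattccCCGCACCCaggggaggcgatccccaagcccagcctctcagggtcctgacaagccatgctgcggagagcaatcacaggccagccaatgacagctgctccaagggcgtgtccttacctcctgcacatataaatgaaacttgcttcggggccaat
Alas2: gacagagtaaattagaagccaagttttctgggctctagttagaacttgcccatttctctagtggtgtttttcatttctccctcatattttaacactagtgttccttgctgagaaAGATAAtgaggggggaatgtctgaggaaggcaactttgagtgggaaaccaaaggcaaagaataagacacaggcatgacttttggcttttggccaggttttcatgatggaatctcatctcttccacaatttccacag
Hemgn: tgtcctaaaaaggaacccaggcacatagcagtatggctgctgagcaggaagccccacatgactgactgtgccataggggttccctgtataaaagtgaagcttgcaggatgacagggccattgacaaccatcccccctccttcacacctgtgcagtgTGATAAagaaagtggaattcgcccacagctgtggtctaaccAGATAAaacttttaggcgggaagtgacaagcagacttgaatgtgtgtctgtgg
Klf1: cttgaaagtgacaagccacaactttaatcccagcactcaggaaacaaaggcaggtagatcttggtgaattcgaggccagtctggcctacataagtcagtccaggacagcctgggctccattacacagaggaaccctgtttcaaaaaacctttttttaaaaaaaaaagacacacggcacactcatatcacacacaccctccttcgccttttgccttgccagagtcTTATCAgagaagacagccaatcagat
Epor: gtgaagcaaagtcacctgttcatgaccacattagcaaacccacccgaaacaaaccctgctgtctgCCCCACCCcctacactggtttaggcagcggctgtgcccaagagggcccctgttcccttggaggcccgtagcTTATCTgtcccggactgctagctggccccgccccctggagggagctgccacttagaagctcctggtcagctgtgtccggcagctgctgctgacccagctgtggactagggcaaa
Tfrc: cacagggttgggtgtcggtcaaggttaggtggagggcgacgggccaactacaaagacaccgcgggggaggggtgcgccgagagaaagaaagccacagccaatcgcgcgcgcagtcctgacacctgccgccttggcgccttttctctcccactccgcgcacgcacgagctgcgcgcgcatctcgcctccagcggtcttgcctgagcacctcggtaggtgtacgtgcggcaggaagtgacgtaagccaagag

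A GATA site stood in the windows of 5 of the 7 members (Hba-a1, Alas2, Hemgn, Klf1, and Epor), and a KLF1 core in those of 3 (Hba-a1, Gata1, and Epor). Of 33465 windows of the same length, 27.0% held a GATA site, 12% a KLF1 core, and 2.17% both, and the shares among so few members say nothing about the factors themselves. Tfrc had neither motif, and a second start of Hemgn had neither. The windows of Hba-a1 and Hba-a2 shared 241 of 250 bases and both motifs at the same places. The expression table has no gene named Hba-a2. Its Hba-a1 entry (ENSRNOG00000029886) spans 30578 bases of chromosome 10 and encloses the separate entry of Hba-a3. Since Hba-a2 has no entry of its own, its reads cannot be told apart here from those of the other alpha-globin genes, and the FPKM of Hba-a1 rests on a summed exon length of 2860 bases.

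Among the late genes, 1 model library stood far below the rest. Hba-a1, an alpha chain of hemoglobin, was measured at 5096, 12594, and 6065 FPKM in control, at 31685, 243, and 34883 FPKM in model, and at 1075, 1600, and 11304 FPKM in SYD. Model libraries 1 and 3 were thus above every control library and model library 2 below every other library. SYD library 3 lay among the controls, and SYD libraries 1 and 2 lay under them. Alas2 (ENSRNOG00000000167), the erythroid enzyme that begins heme synthesis, was measured at 183, 498, and 242 FPKM in control, 918, 6.18, and 1121 FPKM in model, and 29.1, 45.3, and 332 FPKM in SYD. It put the 9 libraries in the same order as Hba-a1.

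Slc4a1 (ENSRNOG00000020951), which exchanges chloride and bicarbonate across the red cell membrane, was measured at 217, 473, and 262 FPKM in control, 342, 0.934, and 274 FPKM in model, and 11.5, 13, and 117 FPKM in SYD. Unlike Hba-a1 and Alas2, it had its highest value in control library 2, and model libraries 1 and 3 lay within the range of the controls. All 3 SYD libraries were below all 3 control libraries.

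**Figure D1:**
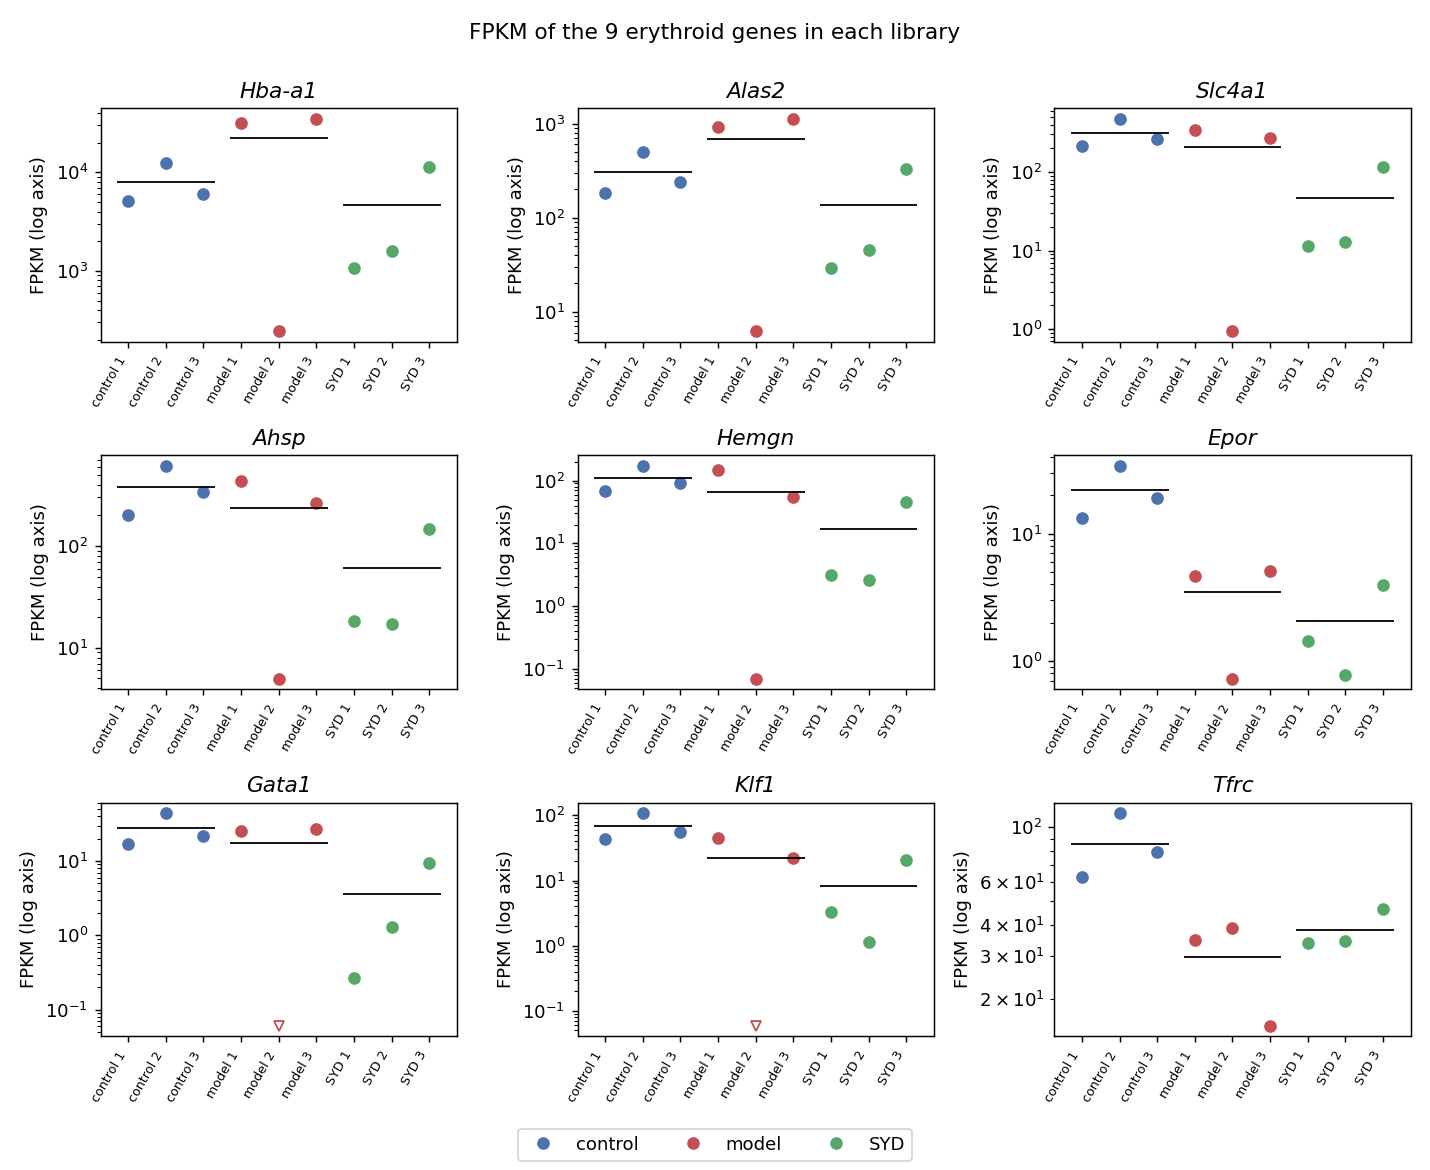
FPKM of the 9 genes in each library on a log axis, with 1 panel per gene; points are libraries, horizontal lines are group means (n = 3), and open triangles mark 0 reads, drawn at the level of 3 reads. Model library 2 is the lowest library in every panel except that of Tfrc, where it lies at 38.9 FPKM.

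Ahsp and Hemgn followed Slc4a1 more than they followed Hba-a1. Ahsp (ENSRNOG00000020165), which binds free alpha-globin chains, was measured at 201, 610, and 336 FPKM in control, 437, 4.99, and 266 FPKM in model, and 18.3, 17.2, and 146 FPKM in SYD. Hemgn (ENSRNOG00000009436), a nuclear protein of blood-forming cells, was measured at 68.8, 170, and 93.2 FPKM in control, 145, 0.0704, and 54.4 FPKM in model, and 3.10, 2.60, and 45.9 FPKM in SYD. Model library 1 lay among the controls for both genes, model library 3 lay among them for Ahsp and below them for Hemgn, and the SYD libraries were all under the controls.

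The 3 progenitor genes did not behave alike. Gata1 (ENSRNOG00000047663), the main transcription factor of the erythroid lineage, was measured at 17.2, 44.1, and 22.0 FPKM in control, 25.1, 0, and 27.0 FPKM in model, and 0.263, 1.30, and 9.27 FPKM in SYD. Klf1 (ENSRNOG00000003443), which activates globin genes, was measured at 43.3, 108, and 56.3 FPKM in control, 45.2, 0, and 22.3 FPKM in model, and 3.27, 1.13, and 20.7 FPKM in SYD. Neither gene had a read in model library 2, where 3 reads would be 0.0609 FPKM of Gata1 and 0.0590 FPKM of Klf1. These limits cover counting error only. Tfrc (ENSRNOG00000001766) was measured at 62.8, 114, and 79.6 FPKM in control, 34.6, 38.9, and 15.5 FPKM in model, and 33.9, 34.3, and 46.3 FPKM in SYD. All 6 operated libraries were below the controls, and they ranged only from 15.5 to 46.3 FPKM. Tfrc is also used by other dividing cells.

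Epor (ENSRNOG00000012619), the erythropoietin receptor, was measured at 13.3, 34.0, and 19.1 FPKM in control, 4.67, 0.728, and 5.10 FPKM in model, and 1.43, 0.777, and 3.93 FPKM in SYD. The operated libraries were all below the controls. These values rest on 30 to 80 reads per operated library, against 704 to 2214 per control library, so small differences among the operated libraries are not detectable at this depth.

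On the scale of log2(FPKM + 1), the mean model less control difference was -0.18 for Hba-a1 (SE 2.33), -0.53 for Alas2 (SE 1.96), -2.41 for Slc4a1 (SE 1.98), and -1.56 for Gata1 (SE 1.32). For Tfrc it was -1.55 (SE 0.42), and for Epor -2.46 (SE 0.61). It was -2.67 for Klf1 (SE 1.41), -2.34 for Hemgn (SE 1.77), and -1.97 for Ahsp (SE 1.63). The libraries of the groups did not overlap for Tfrc and Epor and overlapped for the other 7. Among all genes tested, 11.2% met the study's criteria for DEGs (unadjusted p-value under 0.05 and absolute log2 fold change over 1) as lowered and 3.55% as raised, 2.59% reached adjusted significance (an adjusted p-value of limma under 0.05), and 28.7% had libraries that did not overlap. Nothing is read from the members' count, since their levels chose them.

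Leaving out model library 2 turned the sign for Hba-a1, Alas2, Slc4a1, and Gata1. Without model library 2, the model less control difference was 2.19 for Hba-a1, 1.85 for Alas2, 0.03 for Slc4a1, and 0.02 for Gata1. It was -0.99 for Klf1, -0.21 for Hemgn, -0.02 for Ahsp, -1.79 for Tfrc, and -1.87 for Epor, 5 genes whose sign did not turn. Without control library 2 Hba-a1 was at 0.22. Over 15 alternatives Hba-a1 ran from -4.94 to 2.19, and 3 of them gave the other sign. Values rescaled to TPM, in which mitochondrial reads count toward the total, gave -3.39 for Hba-a1 and -4.66 for Tfrc, with the median of all genes moving from -0.23 to -2.60. Relative to that median Hba-a1 was then lower too, and relative to it Tfrc and Epor were lower on both scales. No member's sign turned with TPM.

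In SYD against model the differences were -1.26 for Hba-a1 (SE 2.15), -1.05 for Slc4a1 (SE 2.10), -1.54 for Gata1 (SE 1.47), and 0.44 for Tfrc (SE 0.39). For every member the libraries of the groups overlapped. Of all genes tested, 3.62% were DEGs raised in SYD, 0.532% were DEGs lowered in SYD, 0% reached adjusted significance in limma, and 11.1% did not overlap. Without model library 2 the difference was -3.63 for Hba-a1 and -3.48 for Slc4a1. With TPM the sign turned for Hba-a1 (0.40), Alas2 (0.35), Slc4a1 (0.72), Ahsp (0.41), Hemgn (0.60), Klf1 (0.93), and Epor (0.67), all of which lay below the median of all genes on that scale (1.22, beside 0.22 with FPKM). Gata1 was then at -0.08 and Tfrc at 1.99. Over 15 alternatives Gata1 ran from -3.121 to 2.035, Klf1 from -2.492 to 3.765, and Hemgn from -3.346 to 3.183. The sign turned in 1, 3, and 3 of these alternatives.

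In SYD against control all 9 differences were negative, from -1.12 for Tfrc (SE 0.26) to -3.56 for Hemgn (SE 1.05). Hba-a1 differed by -1.44 (SE 1.17), Alas2 by -1.86 (SE 0.96), Slc4a1 by -3.45 (SE 0.92), Gata1 by -3.10 (SE 0.82), Klf1 by -3.48 (SE 0.88), Ahsp by -3.22 (SE 0.91), and Epor by -2.96 (SE 0.49). The libraries of the groups did not overlap for any member but Hba-a1 and Alas2, and nothing is read from that count. Among all genes tested, 9.22% were lowered DEGs, 7.25% were raised DEGs, 17.3% reached adjusted significance in limma, and 42.5% did not overlap. Without SYD library 3 the difference was -2.48 for Hba-a1 and -2.91 for Alas2. With TPM it was -2.99 for Hba-a1, -3.42 for Alas2, and -2.67 for Tfrc, with the median of all genes moving from 0 to -1.31. Over 15 alternatives Hba-a1 ran from -4.65 to -0.78. Both comparisons with control share the same 3 control libraries. In bulk tissue, fewer erythroid cells and less of their RNA per cell cannot be told apart.

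The globins (Hba-a1, Hba-a3, and Hbb) took 3.59%, 9.66%, and 4.65% of the reads outside the mitochondrial genes in control, 22.4%, 0.202%, and 22.4% in model, and 0.796%, 1.18%, and 8.52% in SYD. Counted over all reads, the shares were 3.45%, 9.19%, and 4.46% in control, 2.07%, 0.122%, and 4.18% in model, and 0.608%, 0.769%, and 2.32% in SYD. Model libraries 1 and 3 were thus above the controls on the first count, and on the second model library 1 was below them and model library 3 among them. Among the operated libraries, the 3 with the highest mitochondrial share (model 1, model 3, and SYD 3) were also the 3 with the highest globin share outside the mitochondrial genes. The part of the mitochondrial share in the globin levels was not tested.

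**Figure D2:**
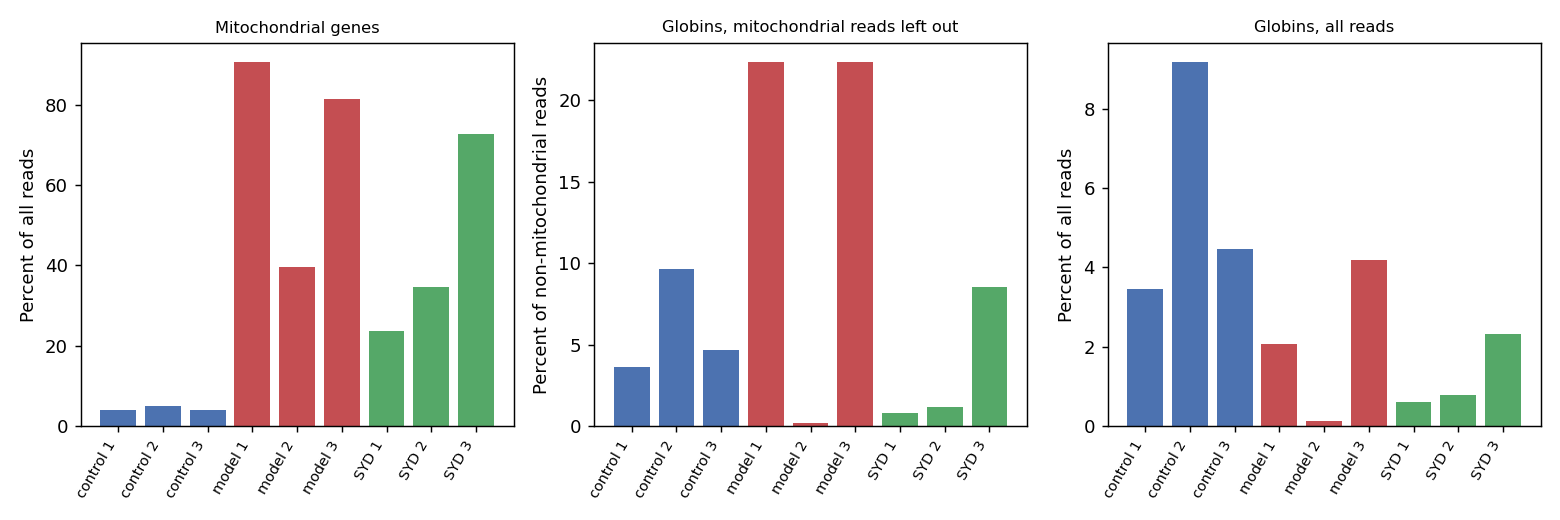
Bars give, for each library, the percent of all reads on mitochondrial genes, the percent of non-mitochondrial reads on Hba-a1, Hba-a3, and Hbb, and the percent of all reads on these globins. The 22.4% of model libraries 1 and 3 in the middle panel become 2.07% and 4.18% of all reads.

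The contrast of late and progenitor genes was taken within each library as the mean log2(FPKM + 1) of Hba-a1, Alas2, and Slc4a1 less that of Gata1, Klf1, and Tfrc. In control it was 3.98, 4.12, and 3.95 (mean 4.02 ± 0.091, SD, n = 3). In model it was 5.94, 2.14, and 6.64 (4.91 ± 2.43, SD, n = 3), and in SYD it was 3.69, 4.18, and 5.12 (4.33 ± 0.727, SD, n = 3). The controls lay close together, and the operated libraries fell on both sides of them. In model library 2, where the contrast was narrowest, the late genes were at their lowest and Tfrc stood at 38.9 FPKM with Gata1 and Klf1 at 0.

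**Figure D3:**
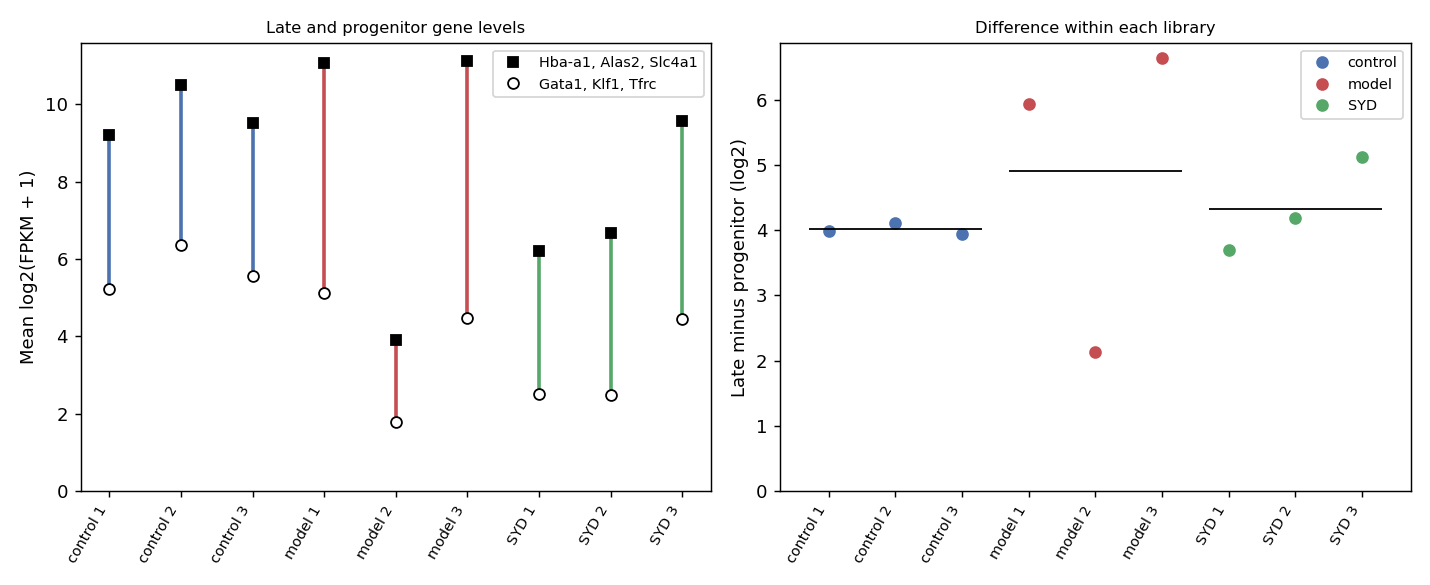
The left panel shows the mean log2(FPKM + 1) of the 3 late genes (squares) and the 3 progenitor genes (circles) in each library, and the right panel their difference with group means as lines (n = 3). The control libraries lie between 3.95 and 4.12 and the model libraries between 2.14 and 6.64.

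Ratios of single genes within a library do not depend on how the libraries are scaled, and they split the members in another way. The FPKM ratio of Hba-a1 to Slc4a1 was 23.5, 26.6, and 23.1 in control, 92.7, 260, and 127 in model, and 93.7, 123, and 96.4 in SYD. All 6 operated libraries were above all 3 controls by at least 3.48 times. The ratio of Hba-a1 to Alas2 moved less, with 25.0 to 27.8 in control and 31.1 to 39.3 in the operated libraries. That of Hba-a1 to Hbb, the beta chain, was 7.22 to 7.30 in control and 6.0 to 8.65 in the operated libraries, so the controls lay inside the operated range. The Hbb entry spans 131813 bases with a summed exon length of 3564 bases. Its ratio to Hba-a1, whose entry is also wide, is therefore no ratio of alpha to beta chains.

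Per 1000 FPKM of Hba-a1, Gata1 stood at 3.37, 3.50, and 3.63 FPKM in control, 0.791, 0, and 0.773 FPKM in model, and 0.244, 0.815, and 0.820 FPKM in SYD. At the lowest of the control ratios, model library 2 would have held 40.4 reads of Gata1, and it had 0. Klf1 stood at 8.50 to 9.29 FPKM per 1000 in control and at 0 to 3.04 in the operated libraries. Hemgn stood at 13.5 to 15.4 against 0.290 to 4.58, and Ahsp at 39.4 to 55.5 against 7.62 to 20.5. Of the 8 members other than Hba-a1, 6 had all operated libraries below all controls in this ratio, against 1.58% of all genes tested. Since the ratio was chosen after the values were seen, this is a description. A gene that kept its control level in model library 2, where Hba-a1 was at 243 FPKM, lies above the controls in this ratio. The share of all genes below them is therefore low from the outset. The exceptions were Epor, which reached 2.99 in model library 2 against 2.60 to 3.14 in control, and Tfrc, which ran from 0.445 to 160 in the operated libraries.

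**Figure D4:**
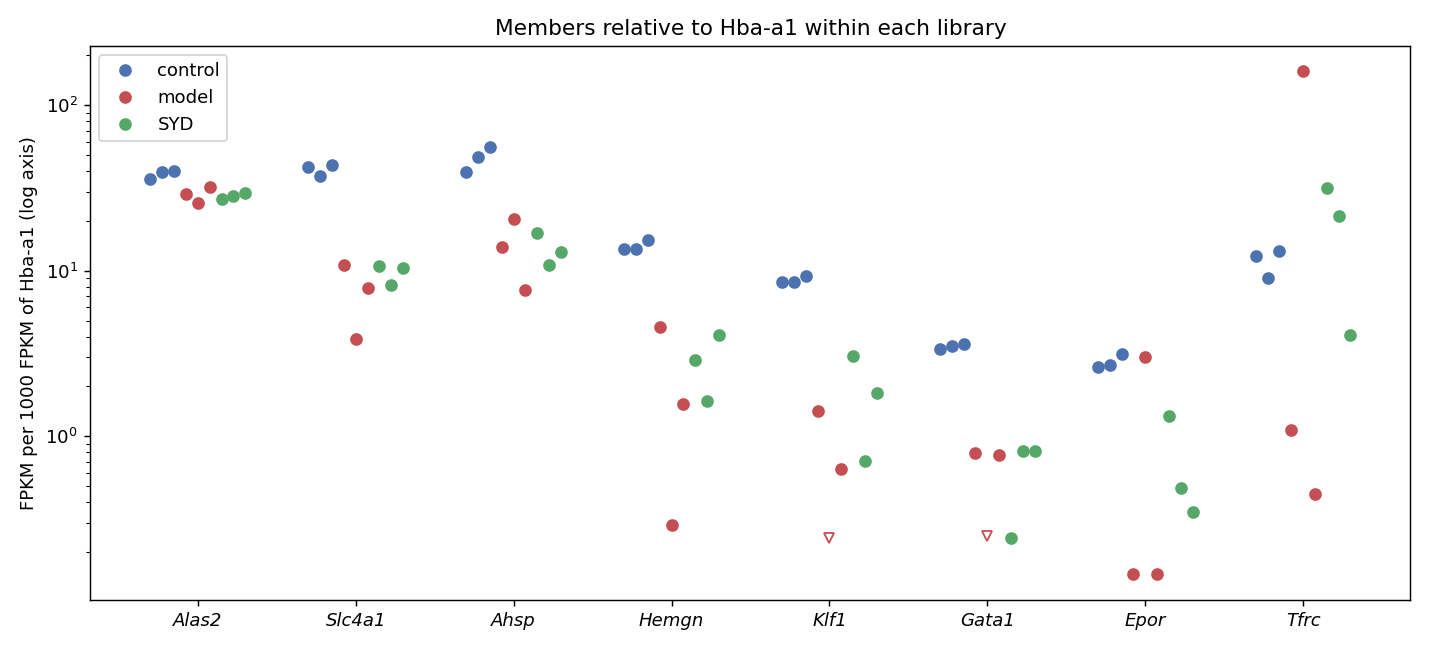
FPKM of each other member per 1000 FPKM of Hba-a1 in the same library, on a log axis, with 1 point per library and open triangles for 0 reads drawn at the level of 3 reads. Operated libraries lie under the controls for Alas2, Slc4a1, Ahsp, Hemgn, Klf1, and Gata1, and overlap them for Epor and Tfrc.

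Late and progenitor genes did not separate cleanly in these ratios. The FPKM ratio of Slc4a1, a late gene, to Gata1, a progenitor gene, was 12.6, 10.7, and 11.9 in control, 13.6 and 10.2 in model libraries 1 and 3, and 43.7, 9.995, and 12.6 in SYD. Apart from SYD library 1, where Gata1 rested on 13 reads, these values lay between 9.995 and 13.6, and model library 2 gave no ratio. Slc4a1 to Klf1, in contrast, was 4.995, 4.37, and 4.65 in control, 7.57 and 12.3 in model libraries 1 and 3, and 3.51, 11.5, and 5.66 in SYD, so that 4 of the 5 operated libraries with a ratio were above the controls. Alas2 to Gata1 was 10.6 to 11.3 in control and 34.8 to 111 in the operated libraries that gave a ratio. Hba-a1, Hbb, and to a lesser degree Alas2 were thus high relative to Slc4a1, Ahsp, Hemgn, Klf1, and Gata1 in the operated libraries.

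Correlations of log2(FPKM + 1) over the 9 libraries gave a similar grouping, as a description of libraries that share depth and mitochondrial share. Pearson's r was 0.997 between Hba-a1 and Alas2, 0.996 between Ahsp and Hemgn, and 0.992 between Slc4a1 and Ahsp. It was 0.925 between Hba-a1 and Slc4a1, 0.581 between Hba-a1 and Epor, and -0.04 between Hba-a1 and Tfrc. Among 12012 other genes with a mean of at least 1 FPKM, those most like the late score over the 9 libraries were Lgals5, a galectin (r = 0.991), Rsad2, Tent5c, Alox15, and Cdc25b (r = 0.988). Those most like the progenitor score were Usp32 (r = 0.990), Rpia, Tal1, Zfpm1, and Phgdh (r = 0.981), of which Tal1 and Zfpm1 encode partners of Gata1.

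The other genes of the erythroid pathways were tested, and in model against control 14 of 81 were DEGs, 12 lowered (14.8%, beside 11.2% of all genes) and 2 raised (2.47%, beside 3.55%). Tfr2, a second transferrin receptor, and Erfe (erythroferrone, the red cell precursors' signal that lowers hepcidin) fell. Tfr2 was measured at 3.58, 8.49, and 5.60 FPKM in control and had no read in any model library (adjusted p = 0.0382, limma). With 3 reads per library put in place of 0 it was 37.8-fold lower. Erfe was measured at 2.89, 6.38, and 3.91 FPKM in control and also had no read in model, 28.4-fold lower on the same terms (adjusted p = 0.0382, limma). These folds allow for counting error only. Model library 1 had reads for only 9060 of the tested genes, against 13564 to 13606 in the control libraries. No other gene of the 81 reached adjusted significance in limma, and 17 had an unadjusted p-value under 0.05. Without model library 1, model library 2, or control library 2 the DEGs among the 81 numbered 25, 25, and 8, and the genes of adjusted significance numbered 6, 11, and 0. Without model library 2 the 25 DEGs were 11 raised and 14 lowered, beside 5.66% and 18.4% of all genes, and the median of the 81 genes was -0.27 beside -0.34 over all genes, no longer below it. Without control library 1, control library 3, or model library 3, 0 of the 81 genes reached adjusted significance in limma. With TPM 76 of the 81 were DEGs, all lowered, but so were 74.9% of all genes. With quantile normalization 17 were lowered and none raised, beside 7.87% and 6.79% of all genes.

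By role, the DEGs of model against control were spread over 5 of the 7 lists. Among 11 genes of heme synthesis 3 were lowered DEGs, among 17 of the red cell membrane and skeleton 4, among 10 erythroid transcription factors 1, and among 18 of red cell maturation 1. Among 13 genes of iron handling 3 were lowered and 2 raised, the raised ones being the ferritin subunits Fth1 and Ftl1, which store iron in all cells. Fth1 was measured at 489, 594, and 550 FPKM in control and at 2673, 1123, and 4337 FPKM in model (log2 difference 2.11, SE 0.66, adjusted p = 0.157, limma). Ftl1 was measured at 243, 393, and 278 FPKM in control and at 1201, 377, and 1256 FPKM in model (log2 difference 1.47, SE 0.58, adjusted p = 0.243, limma). None of 9 genes of erythropoietin signaling and none of the 3 other globins was a DEG. The median log2 difference of the 81 genes was -0.83, beside -0.23 over all genes tested.

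In SYD against model none of the 81 genes was a DEG and none reached adjusted significance in limma, while 2 had an unadjusted p-value under 0.05. Tfr2 and Erfe, at 0 in model, had reads in every SYD library, with means of 1.165 and 0.891 FPKM. Over the 81 genes the differences ran from -2.03 to 1.21. Their median log2 difference was -0.73, beside 0.22 over all genes. Without model library 2 there were 39 DEGs, all lowered in SYD, beside 4.12% of all genes lowered in the same fit, and none reached adjusted significance in limma. On recovered reads, limma's voom called 9 as DEGs, 7 of them raised, beside 7.16% of all genes raised and 0.597% lowered. Hbb, which pairs with alpha-globin, was measured at 705, 1725, and 839 FPKM in control, 4559, 40.5, and 5703 FPKM in model, and 165, 185, and 1576 FPKM in SYD. Its order of libraries in model and SYD was that of Hba-a1.

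In SYD against control the pathways were lowered widely, with 47 of 81 genes lowered DEGs and 2 raised ones, beside 9.22% and 7.25% of all genes. Adjusted significance in limma was reached by 32 lowered genes and 1 raised gene. With all 9 libraries in one fit that number fell from 33 to 4, and the share of all genes from 17.3% to 1.82%. The median log2 difference was -1.51, or -1.61 with Hbe1, at 0 in all SYD libraries, set to its bound, beside 0 over all genes. Leaving out 1 library gave 36 to 58 DEGs. The number of adjusted significance was 14, 9, and 1 without control libraries 1, 2, and 3, and 13, 12, and 54 without SYD libraries 1, 2, and 3.

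Heme is built by a chain of enzymes from Alas2 to Fech. Of 11 genes of heme synthesis other than Alas2, 10 were lowered DEGs and 8 reached adjusted significance in limma. Urod, the fifth enzyme of the pathway, was measured at 42.9, 102, and 54.8 FPKM in control and at 10.9, 11, and 19.4 FPKM in SYD, and fell by 2.15 on the log2 scale (SE 0.38, adjusted p = 0.0203, limma). Fech, which inserts iron into the ring, was measured at 51.1, 122, and 63.5 FPKM in control and at 8.58, 8.61, and 53.8 FPKM in SYD, and differed by -2.12 (SE 0.76, adjusted p = 0.112, limma) with overlapping libraries.

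Of 17 genes of the red cell membrane and skeleton, 15 were lowered DEGs and 11 reached adjusted significance in limma. Rhd, a subunit of the Rh complex, was measured at 61.0, 158, and 83.7 FPKM in control and at 5.53, 4.87, and 34.1 FPKM in SYD, and fell by 3.09 (SE 0.77, adjusted p = 0.0458, limma). Aqp1, a water channel that endothelial cells also use, was measured at 107, 191, and 128 FPKM in control and at 98.9, 136, and 105 FPKM in SYD, and was no DEG.

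Of 10 erythroid transcription factors, 7 were lowered DEGs. Those of adjusted significance in limma were E2f2, which drives S phase (from 60.5 to 6.37 FPKM on average, adjusted p = 0.0155), Zfpm1, the cofactor of Gata1 (35.7 to 8.24 FPKM, adjusted p = 0.0342), Gfi1b, a repressor (19.1 to 2.42 FPKM, adjusted p = 0.0203), Myb, which acts in progenitors (11.2 to 1.34 FPKM, adjusted p = 0.0106), and Bcl11a, a repressor of fetal globin (3.66 to 0.277 FPKM, adjusted p = 0.00866). Nfe2 was lowered without passing that threshold (log2 difference -2.20, SE 0.80, adjusted p = 0.115, limma), and Ldb1 was no DEG.

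Of 18 genes of red cell maturation, 10 were lowered DEGs, and Car1, Trim58, Trim10, and Slc38a5 reached adjusted significance in limma. Car1, carbonic anhydrase of red cells, was measured at 108, 280, and 154 FPKM in control and at 4.91, 4.18, and 35.1 FPKM in SYD, and fell by 4.02 (SE 0.82, adjusted p = 0.0281, limma). Bpgm, which makes the metabolite that loosens oxygen from hemoglobin, was no DEG, with 57.4, 142, and 71.1 FPKM in control, 454, 23.7, and 528 FPKM in model, and 18.1, 30.5, and 180 FPKM in SYD. As for Hba-a1, model libraries 1 and 3 were above every control library and model library 2 was below them.

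Iron handling and erythropoietin signaling were mixed. Of 13 iron genes 3 were lowered DEGs and 1, Fth1, was a raised one (log2 difference 1.01, SE 0.40, adjusted p = 0.137, limma). Slc25a37, which carries iron into mitochondria, fell from a mean of 88.3 to 12.4 FPKM (adjusted p = 0.0262, limma), and Erfe fell from 4.39 to 0.891 FPKM (adjusted p = 0.0273, limma). Of 9 signaling genes, Socs3, an inhibitor of cytokine signaling in many cells, rose from 3.02 to 10.2 FPKM (adjusted p = 0.0408, limma), and Stat5b fell by 0.75 on the log2 scale (adjusted p = 0.0220, limma). Among the other globins, Hbe1, an embryonic chain, had 14 to 29 reads per control library and none in SYD, at least 3.99-fold lower (adjusted p = 0.0102, limma).

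**Figure D5:**
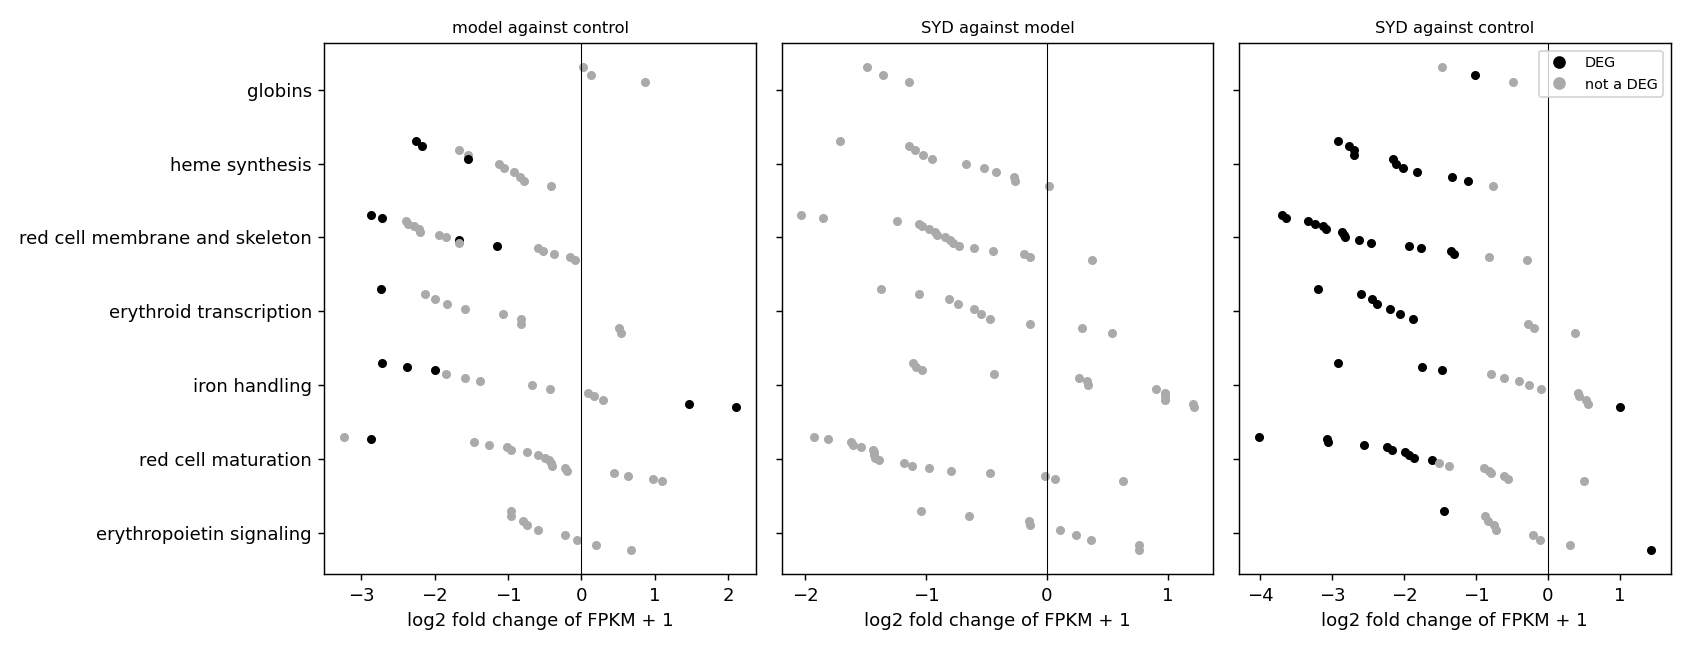
Log2 fold change of FPKM + 1 for each tested pathway gene that is no member, by role (rows) and comparison (panels); black points are DEGs and grey points are not. In SYD against control 47 of 81 genes are black on the lower side and 2 on the upper side, and in SYD against model none is black.

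Relative to Hba-a1 in the same library, the pathway genes were compared in the same way as the members. Of the 81, 20 had all operated libraries below all controls and 1, Bpgm, had them above, beside 1.58% of all genes below and 0.46% above. The lower ones were 10 of 17 genes of the membrane and skeleton, 6 of 18 of maturation, 3 of 10 transcription factors, and 1 of 13 iron genes, while no gene of heme synthesis, signaling, or the globins was among them. Per 1000 FPKM of Hba-a1, Rhd stood at 12 to 13.8 FPKM in control and at 0 to 5.15 in the operated libraries. Bpgm stood at 11.3 to 11.7 in control and at 14.3 to 97.4 in the operated libraries. The counts are a description, because Hba-a1 was at only 243 FPKM in model library 2. A gene that kept its control level there lies above the controls in this ratio, which keeps the share of all genes below them low.

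Lists of other cell types and of the cell cycle were counted in the same comparisons. Of all genes tested, 9.22% were lowered and 7.25% raised DEGs in SYD against control. In model against control 11.2% were lowered and 3.55% raised. Counts of 1 gene in a list, here and below, are too small to set against these shares. In SYD against control, lowered DEGs were 9 of 11 neutrophil genes, 8 of 10 B cell genes, 5 of 8 megakaryocyte genes, 4 of 9 mast cell and eosinophil genes, 1 of 9 macrophage genes, and all 12 cell cycle genes, while 5 of 7 endothelial genes and 1 of 5 hematopoietic progenitor genes were raised DEGs. In model against control lowered DEGs were 6 neutrophil, 8 B cell, 3 megakaryocyte, 3 mast cell and eosinophil, 1 hematopoietic progenitor, and 10 cell cycle genes, and 2 endothelial genes were raised. The neutrophil genes summed to 3238 to 6137 FPKM in control, 81.4 to 8034 FPKM in model, and 563 to 3459 FPKM in SYD. The B cell genes summed to 306 to 400 FPKM in control, 18.8 to 62.3 FPKM in model, and 16.8 to 48.0 FPKM in SYD, so for them model libraries 1 and 3 did not stand out as they did for Hba-a1. The cell cycle genes summed to 246 to 407 FPKM in control, 41.6 to 129 FPKM in model, and 20.9 to 63.0 FPKM in SYD.

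Model library 2 was low in most of these lists. S100a8 and S100a9 of neutrophils stood there at 46.7 and 15.8 FPKM, Cd79a and Cd79b of B cells at 1.29 and 1.31 FPKM, and Pf4 of megakaryocytes at 6.26 FPKM with the other 8 of 9 megakaryocyte genes at 0. Its endothelial genes summed to 222 FPKM and its hematopoietic progenitor genes to 44.3 FPKM, each above every other library. Chondrocyte genes were lowered DEGs in 6 of 10 cases in model against control and in none in SYD against control. In SYD against control 1 of the 10 log2 differences was positive, and their median was -1.725, beside 0 over all genes. These genes summed to 427 to 10470 FPKM in the control libraries, so levels like those of the controls are not read from the lack of DEGs. Osteoblast genes were raised in 2 and lowered in 1 of 8 cases in SYD against control and lowered in 1 in model against control, and no skeletal muscle gene was a DEG in either. The part of these cell lists in the erythroid values was not tested.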

How the data were processed

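The 9 libraries of rat knee cartilage RNA were analysed. The authors deposited FPKM per gene and library in 1 table, and no per-library column was left out (0). The submitters' processing notes name HISAT2 2.0.5 and the human build hg38, while the identifiers are rat, and the rat build is not given in the sources used here. From the deposited FPKM whole reads were recovered (100% of values within 0.1 of a whole read), giving the depth; 3 reads served as the floor. Each comparison was tested with limma 3.58.1 in R 4.3.3 on log2(FPKM + 1) (trend, two-sided) over the 13898 genes averaging 0.5 FPKM or more, with Benjamini-Hochberg adjustment. Fold changes on this scale understate those of low genes. Ftl1 stands on 2 entries, of which the more abundant was used. Of 101 pathway names 95 were found.

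The members and gene lists were chosen with earlier results of these data known. Named genes were the 9 members, the 3 most abundant other genes per pathway list, those with an adjusted p-value under 0.05 where a list had at most 5, the 2 most abundant per cell list, and the 5 most like each score. Some genes this rule selects are not reported here. Others were named after their values were seen, as were ratios to Hba-a1. Alternatives were another pseudocount, other minimums, TPM, quantile normalization, rescaling to non-mitochondrial reads, a joint fit, a replicate block, voom on recovered reads, and leaving out each library. The fit was tested on simulated data.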

Additional observations from a re-analysis of the deposited data

How the results depend on the processing

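The number of the 81 other pathway genes called as DEGs in model against control was 14. It was 76 with TPM (all lowered, beside 74.9% of all genes) and 38 with voom on recovered reads, and 8 to 25 when 1 library was left out. In SYD against model it was 0 as reported, 2 with a pseudocount of 0.1, 4 with TPM, 2 with quantile normalization, 2 with rescaling to non-mitochondrial reads, 2 with all 9 libraries in one fit, and 9 with voom, and 0 to 39 when 1 library was left out. In SYD against control it was 49 and between 34 and 69 under every alternative run, while the genes of adjusted significance, 33 as reported, numbered 4 with all 9 libraries in one fit and 21 to 61 under the other scalings, filters, and voom. The median difference of the members in SYD against control was -3.10, and -4.80 with TPM. The late minus progenitor difference in SYD against control was 0.32, and -0.81 with quantile normalization. TPM moved the median of all genes to -2.60 in model against control, 1.22 in SYD against model, and -1.31 in SYD against control. Relative to these medians, the median of the 81 genes (-3.84, 0.80, and -3.16) was lower in each comparison, as with FPKM. Relative to the median of all genes Hba-a1 was higher by less than 0.1 in model against control with FPKM (-0.18 beside -0.23) and lower with TPM (-3.39 beside -2.60).

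Libraries with the same replicate number deviated from their group means with r from -0.267 to 0.194 over 9 pairs. Pairs with different numbers ran from -0.309 to 0.262. The libraries differ too much in mitochondrial share for these values to decide whether the number marks shared animals or handling. With the replicate block the DEGs among the 81 genes numbered 12, 3, and 48 in model against control, SYD against model, and SYD against control, and none reached adjusted significance in limma in any of the 3.

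Depth outside the mitochondrial genes limits model libraries 1 and 3, where 3 reads over 1 kb are 0.825 and 0.451 FPKM, against 0.0761 to 0.0999 FPKM in the controls. These levels scale with gene length, being lower for longer genes.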
